A study of Rattus norvegicus with 6 samples.

Results

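The genes described here are those of the glucocorticoid receptor system in the neonatal rat ovary: the 2 receptors for corticosteroids, Nr3c1 and Nr3c2, the 2 enzymes that set the amount of active hormone inside a cell, Hsd11b1 and Hsd11b2, and 6 genes known to respond to glucocorticoids, Fkbp5, Tsc22d3, Per1, Sgk1, Dusp1 and Klf9. They were chosen by name. All 10 had a probe on the array, 12 probes in all, among the 15154 gene symbols that could be assigned to probes. Expression was measured in whole ovaries of female Wistar pups collected on PND 7. The pups had been injected intraperitoneally on PNDs 3 and 5 with 0.05 mg/kg LPS (lipopolysaccharide, an outer membrane component of Gram-negative bacteria, here from Salmonella enterica) or with an equal volume of saline. Each treatment was represented by 3 single-colour arrays. Whole litters were allocated to a treatment, and the ovaries for the arrays came from 2 litters per treatment. The animals and litters behind each array were not used here. Differences between litters and between treatments therefore cannot be told apart, and the p-values measure the spread between these arrays only.

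Glucocorticoids such as corticosterone, the main adrenal steroid of the rat, enter cells and bind the glucocorticoid receptor, which is held in the cytoplasm by heat shock proteins until the hormone arrives. The receptor then moves to the nucleus, binds DNA as a dimer and changes the transcription of its target genes. The mineralocorticoid receptor binds the same hormones with higher affinity. Hsd11b1 encodes an enzyme that regenerates active corticosterone from its inert keto form, and Hsd11b2 encodes the enzyme that inactivates it. Both enzymes are known to be expressed in the ovary, and glucocorticoids are released into the blood when an animal responds to LPS.

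Promoter sequences, the 250 bases before a RefSeq transcription start and the bases just after it, were available for 7 of the genes in 12 windows of 300 bases (GRCr8 assembly). Hsd11b1, Hsd11b2 and Nr3c2 were not matched. The palindromic core of the glucocorticoid response element, spelled GNACANNNTGTNC and searched on both strands, was found in 0 of the 12 windows and in 0.439% of all 33469 windows. The shorter element AGAACA, which can form one arm of that palindrome, was found in 0 of the 12 windows, while 20.7% of all windows held it. The cAMP response element TGACGTCA, searched for after the sequences had been seen, was present in 1 window, that of Dusp1, and in 1.83% of all windows. No match says only that these letters were not in these windows. The 2 sequences shown are the part before the start of Dusp1, with the cAMP response element in capitals (its first base lies at -124 from the start), and of Klf9, the gene whose values varied most between arrays.
Dusp1, chr10:17184603-17184852, plus strand: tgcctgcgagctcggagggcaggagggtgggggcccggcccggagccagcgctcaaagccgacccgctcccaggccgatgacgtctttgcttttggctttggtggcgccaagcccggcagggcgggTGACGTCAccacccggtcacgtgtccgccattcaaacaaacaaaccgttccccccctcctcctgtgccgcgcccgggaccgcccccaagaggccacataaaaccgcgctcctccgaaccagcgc
Klf9, chr1:230126396-230126645, plus strand: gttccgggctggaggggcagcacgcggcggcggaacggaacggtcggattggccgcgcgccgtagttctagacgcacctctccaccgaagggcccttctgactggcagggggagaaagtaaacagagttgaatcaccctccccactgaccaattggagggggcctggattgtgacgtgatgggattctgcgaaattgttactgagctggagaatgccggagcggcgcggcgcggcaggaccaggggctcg

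All levels below are log2 signals relative to the 75th percentile of the array, so that a value of 0 is the level of that percentile, and they compare arrays for 1 probe, never one probe with another. A log2 fold change is the LPS mean minus the saline mean. The arrays share 1 slide and none of their spots was saturated. The slide row used below was read from position numbers in the names under which the arrays were deposited. The sample labels do not give it. All saline arrays and LPS replicate 1 lay in a row of 4 arrays, and LPS replicates 2 and 3 in the other row. Row and treatment are thus partly confounded in the main comparison. Saline replicates 2 and 3 carried transcripts typical of the adrenal gland. The summed signal of 6 adrenal cortex markers (in multiples of the 75th percentile) was 136 and 192 on these arrays, against 1.34 on saline replicate 1 and 0.799 to 1.66 on the LPS arrays, and 7 adrenal medulla markers followed the same split, with 86.2 and 56.1 against 3.12 to 5.94 on the other arrays. On the arrays of replicate 1 of both treatments, the summed signal of 7 oviduct and epithelial markers was 50.6 (LPS) and 49.0 (saline), against 18.7 to 28.2 on the rest. Markers of the labelled tissue were present, with all 9 oocyte markers and 8 of 9 granulosa cell markers well above background on every array. In whole tissue, fewer cells of a type and less RNA per cell cannot be told apart.

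None of the 10 genes differed between treatments after adjustment over all probes. Hsd11b1 had a 1.69-fold higher mean with LPS, the largest difference of the 10 in either direction (adjusted p = 0.271 in limma), and the values of the other 9 genes overlapped between treatments. Of the 10 genes, 2 had a positive and 8 a negative log2 fold change, with a median of -0.24. Over the 9673 named genes well above background on all arrays, as all 10 genes were, the median was 0.02 and 53.3% were positive. No member of the 10 differed by 2-fold or more at an unadjusted p under 0.05 in limma (the criterion for a call), where 0.992% of those named genes were and 1.69% of all probes. An unadjusted p under 0.05 without a limit on the fold was found for 1 of 10, Hsd11b1, against 4.47% of the named genes above background and 16.5% of all probes. With p-values adjusted over all probes, none of the array's genes passed, whether by limma or the methods' t-test. The values of both treatments did not overlap for 1 of 10 genes, again Hsd11b1, against 12.8% of the named genes above background and 23.4% of all probes, so a share of this size was near the background. The shares over all probes include probes not well above background on any array. Such a probe, a second one for Nr3c1, had a log2 fold change of -0.70 without overlap.

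**Figure D1:**
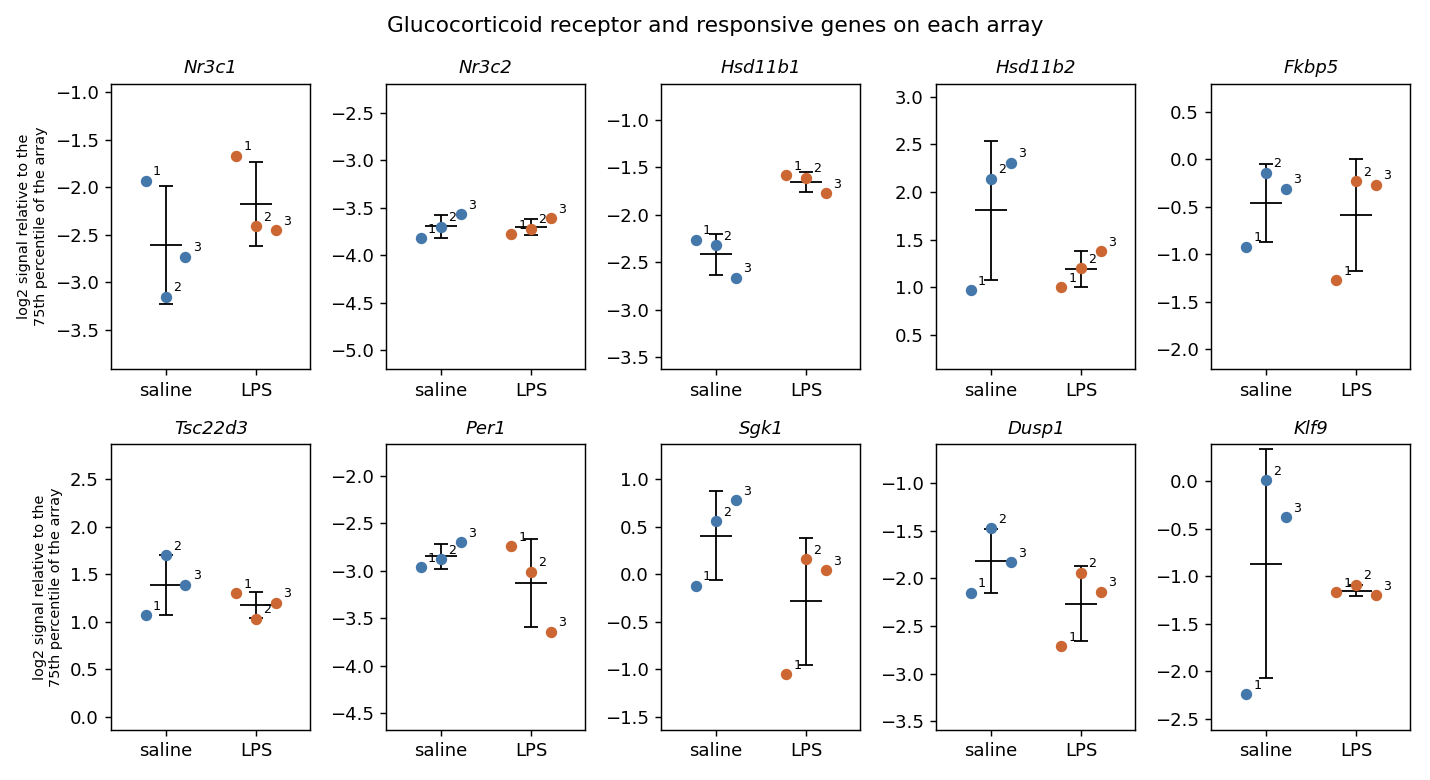
Log2 signal of the 10 genes relative to the 75th percentile of the array (vertical axes, 3 log2 units in each panel) for the 3 saline arrays in blue and the 3 LPS arrays in orange, with replicate numbers beside the points and bars for the mean and SD (n = 3). For Hsd11b1 the lowest LPS value, -1.77, lies above the highest saline value, -2.26, while the points of both treatments overlap in the other 9 panels.

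Nr3c1 encodes the glucocorticoid receptor. Its signal was -1.67, -2.41 and -2.45 on LPS replicates 1, 2 and 3 and -1.93, -3.15 and -2.73 on saline replicates 1, 2 and 3. The highest value of each treatment was that of replicate 1, and saline replicate 1 lay above LPS replicates 2 and 3. The means were -2.18 ± 0.44 (SD, n = 3) with LPS and -2.60 ± 0.62 (SD, n = 3) with saline. The log2 fold change of 0.42 (standard error 0.37, 95% confidence interval -0.46 to 1.31, adjusted p = 0.73 in limma) was within the spread between arrays, and the two-sided exact permutation test gave p = 0.4. The LPS arrays exceeded the saline arrays of the same number by 0.26, 0.73 and 0.28, and with the replicate number as a block the standard error was 0.17 (unadjusted p = 0.0629, adjusted p = 0.267 in limma). The labels do not pair arrays of the same number. A replicate block, here and below, rests only on weak correlations between such arrays in these same data. Against saline replicates 2 and 3 alone the log2 fold change was 0.76, and against saline replicate 1 alone it was -0.25. All 10 probes were on 2 spots. Those of Nr3c1 differed by 0.67 on saline replicate 3 and by a median of 0.11 over the arrays. The high level on both replicate 1 arrays went along with the oviduct and epithelial markers given above, and the part of those cells in the receptor's values was not tested. Another Nr3c1 probe was well above background on 0 of the 6 arrays. The genes most like Nr3c1 over the 6 arrays, among 9672 searched, were Rab17, Spint1 and Neurl3, whose mean-centred log2 values differed from it by a root mean square of 0.05, 0.05 and 0.06.

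Nr3c2, the mineralocorticoid receptor gene, was the most even of the 10 genes. It measured -3.78, -3.72 and -3.61 on LPS replicates 1 to 3 and -3.82, -3.70 and -3.57 on saline replicates 1 to 3. Arrays with the same replicate number lay within 0.04 of each other, and the treatments overlapped fully. The log2 fold change was -0.01 (standard error 0.16, 95% confidence interval -0.39 to 0.38, adjusted p = 0.998 in limma). True differences of any size within that interval remain compatible with these values. The other Nr3c2 probe, like that of Nr3c1, was well above background on 0 arrays.

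Hsd11b1 measured -1.58, -1.61 and -1.77 on LPS replicates 1 to 3. The saline values were -2.26, -2.32 and -2.66. Every LPS array lay above every saline array and the 2 spots of the probe never differed by more than 0.13. The means were -1.65 ± 0.10 (SD, n = 3) and -2.41 ± 0.22 (SD, n = 3). The log2 fold change was 0.76 (standard error 0.18, 95% confidence interval 0.32 to 1.20), with an unadjusted p of 0.00466 and an adjusted p of 0.271 in limma, and the exact permutation test gave p = 0.1, the smallest that 3 arrays against 3 allow. The LPS arrays exceeded the saline arrays of the same number by 0.68, 0.71 and 0.89. Against saline replicate 1 alone, which lacked the high adrenal transcripts, it was 0.60 (unadjusted p = 0.0664, adjusted p = 0.864 in limma), and it was 0.84 against saline replicates 2 and 3. A comparison with saline replicate 1 alone, here and below, assumes that this array varies like the LPS arrays. With the slide row as a block, which leaves LPS replicate 1 as the only LPS array compared and borrows its spread from the rest, it was 0.83 (unadjusted p = 0.0206, adjusted p = 0.517). It stayed below 2-fold in each of these.

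Some markers of other cells had differences in the same direction as Hsd11b1. Of 14 macrophage markers, 11 had a positive log2 fold change, with a median of 0.25, and 1 was called higher at the 2-fold criterion, against 0.594% of all named genes, the mannose receptor gene Mrc1, which was well above background on 3 LPS arrays and 0 saline arrays, for a difference of at least 2.08-fold (adjusted p = 0.271 in limma). Adgre1, which encodes the macrophage antigen F4/80, had a log2 fold change of 0.81 and Csf1r, the receptor gene for the macrophage growth factor, 0.52. The summed macrophage signal was 13.3 to 16.6 on the LPS arrays and 10.8 to 14.2 on the saline arrays, which overlap, and no marker of the list was below background on all arrays. Cidec, a lipid droplet gene of fat cells, had a log2 fold change of 0.94 with no overlap. The 6 fat markers, however, had a median of -0.01, and 4 of them were negative. Kitlg, the granulosa cell ligand for Kit, had a log2 fold change of 0.57, also without overlap. The 9 granulosa cell markers had a median of 0.25, with 6 positive and 3 negative. Of the named genes above background, 12.8% did not overlap in either direction. All 9 oocyte markers were positive, with a median of 0.43, as were 6 of 7 oviduct and epithelial markers, with a median of 0.34. The part of these cells in the Hsd11b1 difference was not tested.

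Hsd11b2 encodes the inactivating enzyme. It measured 1.00, 1.20 and 1.38 on LPS replicates 1 to 3, against 0.97, 2.14 and 2.31 on the saline arrays. Saline replicate 1 was the lowest array of all, and saline replicates 2 and 3 were the highest. The log2 fold change of -0.62 (standard error 0.37, 95% confidence interval -1.49 to 0.26, adjusted p = 0.506 in limma) was within the spread of the saline arrays, whose SD was 0.73 against 0.19 for LPS. Without saline replicate 1 it was -1.03 (unadjusted p = 0.00244, adjusted p = 0.144 in limma), past the 2-fold criterion, as were 3.72% of all probes. Without saline replicates 2 and 3 it was 0.22. The 2 saline arrays with high Hsd11b2 were those with adrenal transcripts. They exceeded saline replicate 1 by 1.25, and the part of adrenal RNA in this was not tested. Hsd11b1 was thus higher with LPS against each of the 3 saline arrays, whereas Hsd11b2 was lower against saline replicates 2 and 3 but not against saline replicate 1.

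Among the responsive genes, Sgk1 and Dusp1 were lower on each LPS array than on the saline array of the same number, though the labels do not pair these arrays. Sgk1, a kinase gene that controls sodium channels and cell survival, measured -1.05, 0.16 and 0.04 on LPS replicates 1 to 3 and -0.12, 0.56 and 0.78 on saline replicates 1 to 3. LPS replicate 1 was far below the rest, and saline replicate 1 lay among the LPS values. The log2 fold change was -0.69 (standard error 0.39, 95% confidence interval -1.63 to 0.25, adjusted p = 0.473 in limma; exact permutation p = 0.3). Arrays of the same number differed by -0.93, -0.40 and -0.75. With the replicate number as a block in limma the standard error was 0.17, with an unadjusted p of 0.0125 and an adjusted p of 0.172. With the slide row as a block, the LPS side is in effect LPS replicate 1 alone, the lowest array, and its spread is taken from the other arrays. This gave a log2 fold change of -1.46 (unadjusted p = 0.00855, adjusted p = 0.372). Against saline replicate 1 alone it was -0.17.

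Dusp1, whose product is a phosphatase that switches off MAP kinases, followed nearly the same order of arrays, with a smaller difference. The LPS values were -2.71, -1.94 and -2.14 and the saline values were -2.15, -1.47 and -1.83. Replicate 1 was the lowest array in both treatments, and the groups overlapped. The log2 fold change was -0.45 (standard error 0.28, 95% confidence interval -1.11 to 0.22, adjusted p = 0.535 in limma), which was within the spread between arrays. Arrays of the same number differed by -0.56, -0.47 and -0.30, and the replicate block in limma gave an unadjusted p of 0.0328 and an adjusted p of 0.211. Against saline replicate 1 alone the log2 fold change was -0.11, and against saline replicates 2 and 3 it was -0.61. Both genes were higher on the saline arrays with adrenal transcripts than on saline replicate 1, by 0.79 for Sgk1 and 0.50 for Dusp1, and the part of adrenal RNA in these differences was not tested.

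Klf9, a zinc finger transcription factor gene induced by glucocorticoids and thyroid hormone, had the widest spread. It was -1.17, -1.09 and -1.20 on LPS replicates 1 to 3, a range of 0.11. On the saline arrays it was -2.24, 0.01 and -0.38, a range of 2.24. Saline replicate 1 lay below all LPS arrays and saline replicates 2 and 3 lay above all of them, so the log2 fold change of -0.28 (standard error 0.56, 95% confidence interval -1.62 to 1.05, adjusted p = 0.934 in limma) averages differences of opposite sign. It was 1.08 against saline replicate 1 alone (unadjusted p = 0.00831, adjusted p = 0.801) and -0.97 against saline replicates 2 and 3 (unadjusted p = 0.00311, adjusted p = 0.166). The low value of saline replicate 1 is uncertain, because the 2 spots of the probe gave -2.97 and -1.51 there, a difference of 1.46, whereas the median difference over the arrays was 0.03. Both spots were below every other array. With the first spot alone the log2 fold change was -0.01, and with the second alone it was -0.55, with an adjusted p of 0.999 and 0.608. The high values on saline replicates 2 and 3 went along with the adrenal transcripts, whose part was not tested.

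The remaining responsive genes showed no difference beyond the spread. Fkbp5, which encodes a chaperone that lowers the receptor's affinity for hormone, measured -1.27, -0.23 and -0.27 with LPS and -0.92, -0.14 and -0.31 with saline. Both replicate 1 arrays were low and the rest lay close together, which gave a log2 fold change of -0.13 (standard error 0.35, 95% confidence interval -0.98 to 0.71). Tsc22d3, which encodes the anti-inflammatory leucine zipper protein GILZ, was 1.30, 1.03 and 1.20 with LPS and 1.07, 1.70 and 1.39 with saline. Its log2 fold change was -0.21 (standard error 0.21, 95% confidence interval -0.72 to 0.30). The circadian repressor gene Per1 was -2.74, -3.01 and -3.64 with LPS and -2.96, -2.88 and -2.70 with saline. Here LPS replicate 3 was the low array, and the log2 fold change was -0.28 (standard error 0.26, 95% confidence interval -0.90 to 0.34). The adjusted p of these 3 genes in limma lay between 0.755 and 0.964, and their confidence intervals reached from -0.98 to 0.71.

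**Figure D2:**
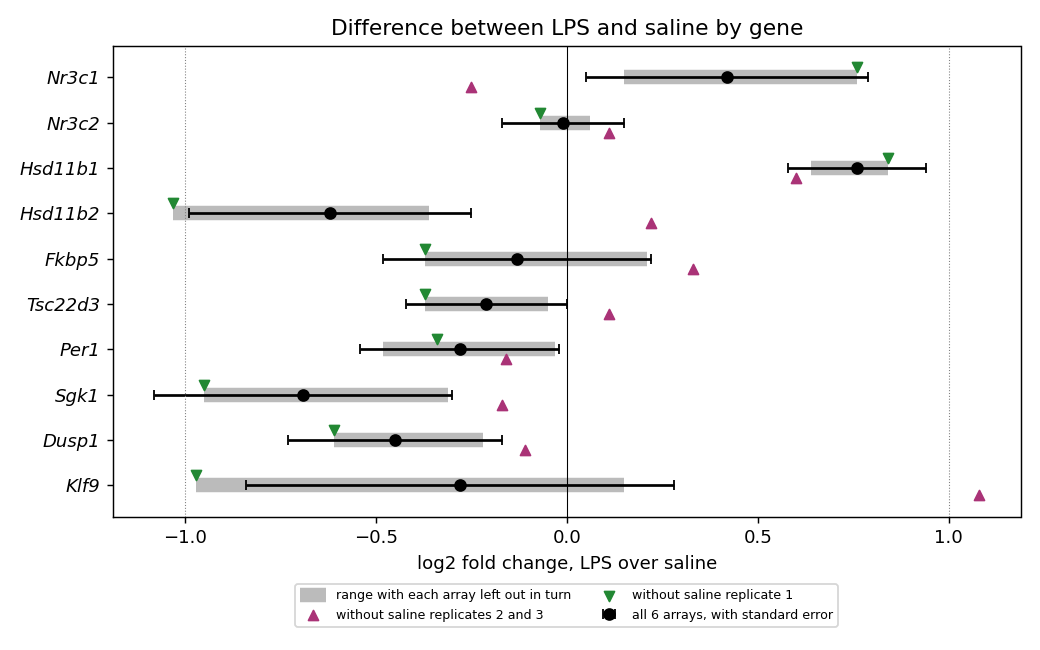
Log2 fold change (LPS over saline, horizontal axis) of each gene over all 6 arrays with its standard error (black), the range with each array left out in turn (grey), and the values without saline replicate 1 (green) and without saline replicates 2 and 3 (purple); the dotted lines mark a 2-fold difference. Hsd11b1 stays between 0.60 and 0.84 in all of these, while Klf9 runs from -0.97 to 1.08.

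Set side by side, the arrays formed a pattern that cut across the treatments. Saline replicates 2 and 3 were both above all 3 LPS arrays for Hsd11b2, Tsc22d3, Sgk1, Dusp1 and Klf9. Saline replicate 1 lay within or below the range of the LPS arrays for these 5 genes. How many of all genes share this split was not counted. In the limma fit without saline replicate 1, 7196 of all 30365 probes had an unadjusted p under 0.05, in either direction. Such differences were thus not particular to the genes named here. With each gene centred on its own mean over the 6 arrays, the median of the 10 genes was 0.40 and 0.21 on saline replicates 2 and 3, -0.20 on saline replicate 1 and -0.12, -0.02 and -0.07 on LPS replicates 1, 2 and 3. The differences between saline replicate 1 and the mean of saline replicates 2 and 3 ran from -1.01 for Nr3c1 to 2.05 for Klf9, and for 8 of the 10 genes their size was larger than that of the difference between treatments. The exceptions were Hsd11b1, where saline replicates 2 and 3 were lower than saline replicate 1 by 0.23, and Per1, where they were higher by 0.18. The share of all genes with a larger difference among the saline arrays than between treatments was not counted either.

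**Figure D3:**
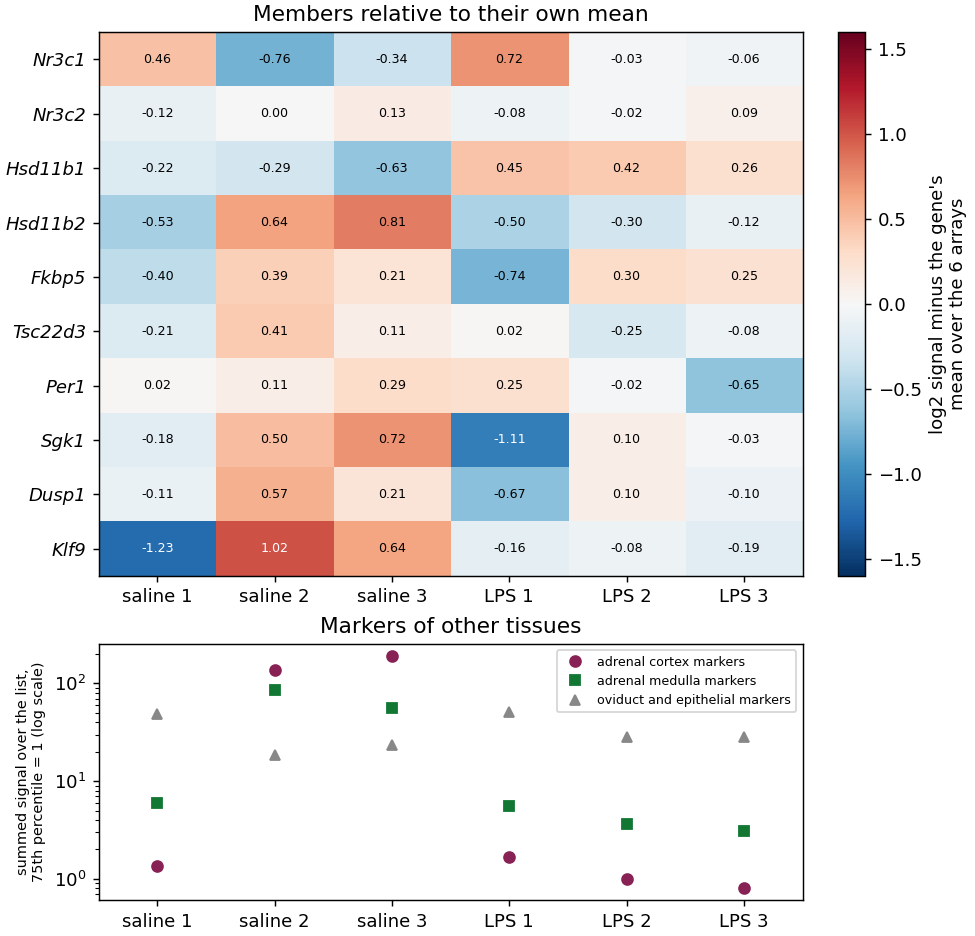
Upper panel, log2 signal of each gene (rows) on each array (columns) minus the gene's mean over the 6 arrays; lower panel, summed signal of adrenal cortex, adrenal medulla, and oviduct and epithelial markers on the same arrays on a log scale, in multiples of the 75th percentile. Saline replicates 2 and 3 are above the gene means for Hsd11b2, Sgk1, Dusp1 and Klf9 and have adrenal cortex sums of 136 and 192, against 0.799 to 1.66 on the other arrays.

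The rest of the pathway was read from gene lists. Of 16 genes with a probe for chaperones and coregulators of the receptor, all were well above background on every array, 6 had a positive and 10 a negative log2 fold change, and the median was -0.04. None was called at the 2-fold criterion. The largest differences were those of Smarca4, the motor subunit of a chromatin remodelling complex, with -0.42 (standard error 0.19, adjusted p = 0.338 in limma), and of Ipo13, a nuclear import receptor gene, with -0.31. The 2 genes that were lower on every LPS array than on any saline array were Smarca4 and Hspa4, a chaperone gene with a log2 fold change of -0.22, named after its values were seen, and 12.8% of the named genes above background did not overlap in either direction. Smarca4 was 1.87, 2.24 and 2.14 with LPS and 2.28, 2.65 and 2.57 with saline.

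Of 32 other glucocorticoid-responsive genes with a probe, 14 were positive and 18 negative, with a median of -0.03, and 24 were well above background on all arrays, of which 12 were positive and 12 negative. The 1 gene called, where 1.17% of all named genes were called lower, was Cebpb, a transcription factor gene of the acute phase response, which was lower with LPS. Its values were 1.92, 1.53 and 1.55 with LPS and 2.01, 3.51 and 3.23 with saline, and the log2 difference came to -1.25 ± 0.40 (standard error), with an adjusted p of 0.271 in limma. Saline replicate 1 lay just above LPS replicate 1, and saline replicates 2 and 3 lay far above both. Next in size among genes well above background on all arrays were Angptl4, an inhibitor of lipoprotein lipase, with -0.55 and Cdkn1c, a cell cycle inhibitor gene, with -0.53. Angptl4 was 0.42, 0.77 and 0.59 with LPS and 0.21, 1.97 and 1.23 with saline, so saline replicate 1 lay below every LPS array. On saline replicate 1 Cdkn1c was 3.66, just above its highest LPS value of 3.65, and it was 4.46 and 3.94 on saline replicates 2 and 3.

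Genes of corticosteroid synthesis, transport and clearance differed most, and all the calls were of lower signal. Of 20 genes with a probe, 19 were negative, with a median of -1.86, and 6 were called lower, against 1.17% of all named genes: Cyp11b1, Cyp11b2, Cyp11b3, Cyp21a1, Fdxr and Mc2r. Among the 14 well above background on all arrays, 13 were negative, also with a median of -1.86. Cyp11b1, which encodes the last enzyme of corticosterone synthesis, was well above background on saline replicates 2 and 3 only, at 5.62 and 6.05. The same held for Mc2r, the corticotropin receptor gene, at -0.12 and -0.31. On saline replicate 1 Mc2r was at -6.83, and on the LPS arrays at -7.52 to -7.01, all not well above background. Cyp21a1 (steroid 21-hydroxylase) had a log2 fold change of -4.65 and Cyp11b3 of -3.36, both well above background on all arrays. Cyp11b2, the aldosterone synthase gene, was measured well above background only by 1 LPS array and saline replicates 2 and 3, so its fitted value of -5.02 rests in part on dim spots. Cyp11a1, which encodes the enzyme of the first step from cholesterol, measured -2.94, -1.01 and -1.54 with LPS and -2.63, 6.17 and 6.58 with saline. Its difference of -5.20 ± 2.37 (standard error; adjusted p = 0.336 in limma) was not past the criterion, nor was the -4.04 of Mrap, which encodes the partner of the corticotropin receptor. On saline replicate 1 these genes were near the level of the LPS arrays, and none of the 20 was called lower without saline replicates 2 and 3. Of the 6 called genes, 5 are also among the adrenal cortex markers given above, as is Mrap, so both lists describe the same difference between the saline arrays. The exception in sign was Cyp17a1, the theca cell and androgen synthesis gene that is not expressed in the adult rat adrenal cortex, with 0.94.

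The circadian genes, to which Per1 belongs, and the immediate early genes, induced rapidly like Dusp1, gave 1 call between them, against 1.17% of all named genes called lower and 0.594% called higher. Of 13 clock genes, 5 were positive and 8 negative, with a median of -0.29 and none called. Among the 10 well above background on all arrays, 4 were positive and 6 negative, with a median of -0.39. Nr1d1, a clock repressor gene, had a log2 fold change of -0.78, and Dbp, a clock output gene, of -0.62 (standard error 0.23, adjusted p = 0.278 in limma) with no overlap between treatments. Nr1d1 on saline replicate 1 was -2.76, within its LPS values of -3.03 to -2.36. Dbp on that array was 2.39, just above its highest LPS value of 2.31. Of 17 immediate early genes, 4 were positive and 13 negative, with a median of -0.33. Among the 13 well above background on all arrays, 3 were positive and 10 negative, with a median of -0.25. The 1 gene called was Nr4a1, an orphan nuclear receptor gene induced by corticotropin, with -1.61, -1.36 and -2.16 with LPS and -1.08, 1.95 and 1.30 with saline, and the log2 difference came to -2.44 ± 0.75 (standard error), with an adjusted p of 0.271 in limma. The next largest difference among genes well above background on all arrays was that of Junb, -0.92. Adrenal transcripts were high on the same saline arrays as Cebpb, Angptl4, Cdkn1c, Nr1d1, Dbp, Nr4a1 and Junb. The part of adrenal RNA in these values was not tested.

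**Figure D4:**
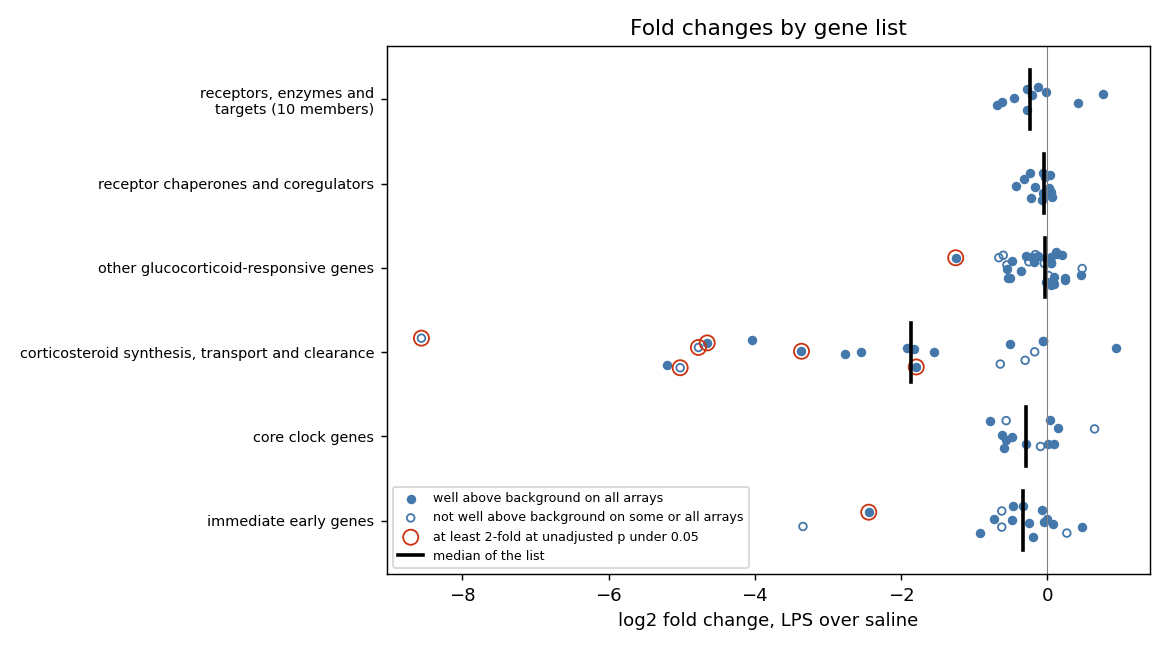
Log2 fold change (LPS over saline, horizontal axis) of every gene with a probe in 6 gene lists, with the median of each list as a black bar, open points for genes not well above background on some or all arrays (their fitted values are not bounds), and red rings for genes past the 2-fold criterion. The list of corticosteroid synthesis genes has its median at -1.86, and the other medians lie between -0.33 and -0.03.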

How the data were processed

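Total RNA of whole ovaries was amplified, labeled and hybridized to Agilent SurePrint G3 Rat GE 8x60K arrays. The study gives Cy3 as the dye, whereas the sample labels name biotin. The authors deposited the spot intensity values of each array from Feature Extraction 10.5.1.1, with its background already subtracted and with a substitute value for dim spots, and a table of the same intensities. The labels name the tool lumi, and its use is not given in the sources used here. From these intensities the log2 of the processed signal, without flagged spots and averaged over the spots of a probe, was scaled by the 75th percentile of each array over its probes. The lmFit and eBayes functions of limma 3.58.1 (R 4.3.3) were used to compare 3 LPS with 3 saline arrays over 30367 probes, with Benjamini-Hochberg adjustment over all of them, after it had been tested on simulated data. A call needed a 2-fold difference and an unadjusted p under 0.05, the criterion that the study names for its arrays.

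Symbols were assigned to 17998 probes through their RefSeq accession, and the probe with the highest mean signal stood for a gene. Well above background is the scanner software's own flag, needed on all spots of the probe. Where a probe was dim on a whole group, "at least" gives the bright group's mean over the dim group's, with each dim array raised to its faintest probe that was well above background if its own value lay below that. Genes and gene lists were chosen with earlier results of these data known. The rule for names took all 10 genes, from each other list the genes called (the 5 largest where more passed) and the 2 with the largest difference among those well above background on all arrays, and for Nr3c1 the 3 genes with the most similar values. Lists that serve as cell type markers are mostly given by their sums, without all the names that the rule allows. Outside the rule, and after their values were seen, Hspa4, Cyp17a1 and all 6 called genes of corticosteroid synthesis were named. Arrays with the same replicate number deviated together from their group means (correlations across 30364 probes of 0.298, 0.215 and 0.254), which is the only evidence that the numbers pair the arrays. The 19 alternatives covered background correction, scaling, the deposited table, flagged and dim spots, a t-test with equal variances, slide row, replicate block, probe choice, arrays left out and, chosen after seeing the data, single spots. The study names no t-test for its arrays. The number of arrays limits the precision.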

Additional observations from a re-analysis of the deposited data

How the results depend on the processing

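Hsd11b1 kept its direction in all 19 alternatives, with a log2 fold change from 0.45 to 1.14, an unadjusted p under 0.05 in 18 of them and an adjusted p from 0.167 to 0.963. Sgk1 (-1.46 to -0.17) and Dusp1 (-0.89 to -0.07) also kept theirs. Without scaling, 4.05% of all 30367 probes were called and 1844 had an unadjusted p under 0.05, both in either direction. Leaving out the scaling shifts all genes alike, and the median over all probes was then 0.34 against -0.04. Small negative values turn positive by this construction, and the log2 fold change became 0.37 for Nr3c2, 0.24 for Fkbp5, 0.17 for Tsc22d3, 0.09 for Per1 and 0.09 for Klf9, while 1 gene of the 10 (Hsd11b1, 1.14) was called higher, 2 had an unadjusted p under 0.05 and a higher signal, and 2 other pathway genes were called higher. Without saline replicates 2 and 3 the sign turned for Nr3c1 (-0.25), Nr3c2 (0.11), Hsd11b2 (0.22), Fkbp5 (0.33), Tsc22d3 (0.11) and Klf9 (1.08), with 1 of the 10 genes (Klf9) and 1 other pathway gene called higher and 0 other pathway genes called lower, against 8. Over the fits that leave out 1 array each, the range was 0.15 to 0.76 for Nr3c1, -0.07 to 0.06 for Nr3c2, 0.64 to 0.84 for Hsd11b1, -1.03 to -0.36 for Hsd11b2, -0.37 to 0.21 for Fkbp5, -0.37 to -0.05 for Tsc22d3, -0.48 to -0.03 for Per1, -0.95 to -0.31 for Sgk1, -0.61 to -0.22 for Dusp1 and -0.97 to 0.15 for Klf9. In the same fits 0 of the 10 genes were called higher and 0 to 1 lower, where the 1 is Hsd11b2 without saline replicate 1, a setting in which Hsd11b2 and Klf9 made up the 2 genes with an unadjusted p under 0.05 and a lower signal (otherwise 0). Other pathway genes called higher numbered 0 to 1 (1 without LPS replicate 1) and called lower 0 to 20, with 20 without saline replicate 1, 1 without saline replicate 2, 0 without saline replicate 3, 2 without LPS replicate 2 and 3 without LPS replicate 3. Over all 30365 probes of the fit without saline replicate 1, 7196 had an unadjusted p under 0.05 in either direction and 3.72% were called. In the same fit 290 probes passed at an adjusted p under 0.05. Slide row as a block, where the LPS side is LPS replicate 1 alone, gave 1 of the 10 genes called lower (Sgk1, -1.46), 2 with a lower signal at an unadjusted p under 0.05, a log2 fold change of 0.11 for Per1, and 2 other pathway genes called higher and 0 lower. The replicate block left 0 of the 10 genes called, gave 2 (Sgk1 and Dusp1) with an unadjusted p under 0.05 and a lower signal in place of 0, and changed no other call of the 10. Over all 30367 probes, 6307 had an unadjusted p under 0.05 with the block, in either direction, and 2.07% were called. Other pathway genes called lower were 11 with the block. With normexp background correction 1 of the 10 genes had an unadjusted p under 0.05 and a lower signal. Over all 30367 probes, 1759 had such a p in either direction. In that fit 13 other pathway genes were called lower. The count was 5 when each probe had to be above background on a whole group and 0 in the t-test with equal variances. The mean over all probes gave -0.14 for Nr3c1, whose other probe was not above background, and the second spot alone gave 0.09 for Nr3c2. The cause of these shifts was not tested.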

Other observations

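The kidney is known for high expression of Hsd11b2 and Nr3c2. Of 9 kidney markers, 5 had a positive and 4 a negative log2 fold change, with a median of 0.04 and none called, and only 4 were well above background on all arrays. Their summed signal, in multiples of the 75th percentile, was 5.40 and 6.65 on LPS and saline replicate 1, against 2.23 to 3.04 on the rest. Most of each sum was the signal of a single marker, Cdh16. Its log2 signal was 2.02 and 2.44 on LPS and saline replicate 1 and 0.61 to 1.25 on the rest. The oviduct and epithelial sums were high on the same arrays. Every other kidney marker lay below the 75th percentile on all arrays. The part of kidney RNA in the values of these genes was not tested.

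Fat markers, from a tissue that surrounds the neonatal ovary, gave a summed signal of 28.5, 15.0 and 14.9 on LPS replicates 1, 2 and 3 and of 21.1, 28.6 and 10.7 on the saline arrays. Oocyte markers were positive for all 9 genes, with a median of 0.43 and none called, and their sums were 17.1, 47.4 and 38.8 with LPS and 20.2 to 34.1 with saline. Granulosa cell sums were 22.5, 72.3 and 51.3 with LPS and 38.3, 36.5 and 60.4 with saline. LPS replicate 1, on which Sgk1, Dusp1 and Fkbp5 were lowest of all arrays, thus had the lowest oocyte and granulosa cell sums. The part of these cells in the values of the 3 genes was not tested.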
